A study of Mus musculus with 6 samples.

Results

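Interferon response and antigen presentation genes were followed in the uninjured spinal cord of adult mice with and without Nogo-A. They were chosen by name as 32 genes, and every probe set annotated to them was taken. Interferons are secreted proteins, several of them released by cells on sensing foreign nucleic acid. Their receptors signal through JAK kinases to STAT and IRF transcription factors, which switch on a common set of genes that hinder viral replication and raise the display of peptides on major histocompatibility complex (MHC) molecules. In the healthy central nervous system many of these genes are little used, and MHC class II molecules are borne mainly by macrophages at its borders and by activated microglia.

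Whole spinal cords were taken from 3 wild type C57Bl/6 mice and 3 C57Bl/6 mice with a knockout of Nogo-A, an inhibitor of axon growth found on oligodendrocytes and on some neurons. All 6 animals were male, 4 months old and untreated, and each was measured on 1 Affymetrix Mouse 430 2.0 array. How the Nogo-A allele was made is not given in the sources used here. Values are deposited signal intensities, which the authors scaled to a common array average, and fold differences are knockout over wild type on the log2 scale with 95% confidence intervals from limma. Each gene is described by its brightest tested probe set unless another is named, and signals of different probe sets are not levels that can be compared.

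Of the 32 genes, 31 had at least 1 probe set annotated to them alone, 65 probe sets in all among 45037 on the array. A probe set was tested if, in either genotype, its signal reached the array median in 2 or more of the 3 animals. That left 44 probe sets of 27 genes, among 23546 probe sets of 11651 genes. The 21 probe sets that were not tested had signals of 2.20 to 283. Mx1, Psmb9, Tap1 and Usp18 had no tested probe set. Isg15 was read only by a probe set shared with another gene. Of the 44 probe sets, 5 reached the filter through the knockout arrays alone and 3 through the wild type arrays alone, which itself favours a difference in that direction.

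The labels and the arrays were checked first. Of the 5 probe sets of Rtn4, which encodes Nogo-A, 1 was nearly lost in the knockout, with signals of 3560, 2790.4 and 2802 in wild type and 78.2, 9.17 and 5.08 in knockout. The other 4 were higher in knockout without overlap, with folds of 1.32 to 1.62 and unadjusted limma p-values of 0.000137 to 0.00789. The lost probe set was the single one called among all 23546 tested, at an adjusted p of 0.0149 in limma, or 0.00425% of them. Defining genes of neurons, oligodendrocytes and astrocytes were at or above the array median on all 6 arrays, except Chat. Wild type replicate 3 stood apart, with a mean correlation of 0.930 with the other arrays, against 0.951 to 0.961 for the others. Its array median was 195, against 148 and 169 for the other wild type arrays and 144 to 149 for the knockouts. Where leaving it out moved a fold to the other side of 1, that fold is given as well.

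No tested probe set of the interferon and antigen presentation genes passed the adjusted threshold of 0.05. The smallest Benjamini-Hochberg adjusted p in limma was 0.591. At an unadjusted p under 0.05, limma placed 5 of the 44 probe sets higher in knockout (11.4%), where 4.3% of all tested probe sets were, and 2 lower (4.55%), where 3.98% of all were. The 5 higher ones belonged to H2-D1, H2-K1, Cd74 and H2-Aa, all of them antigen presentation genes, and the 2 lower ones to Rsad2 and Samhd1, antiviral effectors. Both lower ones reached the filter through the wild type arrays alone, and a higher one of H2-Aa through the knockout arrays alone. Their direction was thus favoured by the filter. Groups did not overlap in 4 probe sets with higher knockout values (9.09%, against 7.84% of all tested) and 2 with lower values (4.55%, against 6.62%). The share that was higher at an unadjusted p under 0.05 lay above that of all probe sets, and the other shares lay near or below theirs. It came from 5 probe sets of 4 genes, 1 of them favoured by the filter. Under quantile normalization 2 were higher, where 3.67% of all were, and after division by array medians 7, where 11.9% were. By brightest probe sets in the main fit, 2 of 27 genes (7.41%) were higher at that level, against 4.94% of all tested genes. In turn 0 were lower, against 3.25%.

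Over the 27 genes, 17 lay above 0 (63.0%, against 55.8% of all tested genes) and 10 below. The median log2 difference was 0.12, against 0.028 over all tested genes. Dividing each array by its median raises the difference of every gene: the median of all tested genes was then 0.25 and that of the 27 genes 0.34, and 25 of the 27 lay above 0. Counted against the median of all genes, 17 of 27 lay above it under the deposited scaling, under the array medians and under quantile normalization alike. The confidence interval of the fold stayed within 1.5-fold either way for 8 of the 27 genes and within 2-fold for 21. Smaller differences were therefore not resolved with 3 animals a genotype. In whole tissue, fewer cells of a type and less RNA per cell cannot be told apart.

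**Figure D1:**
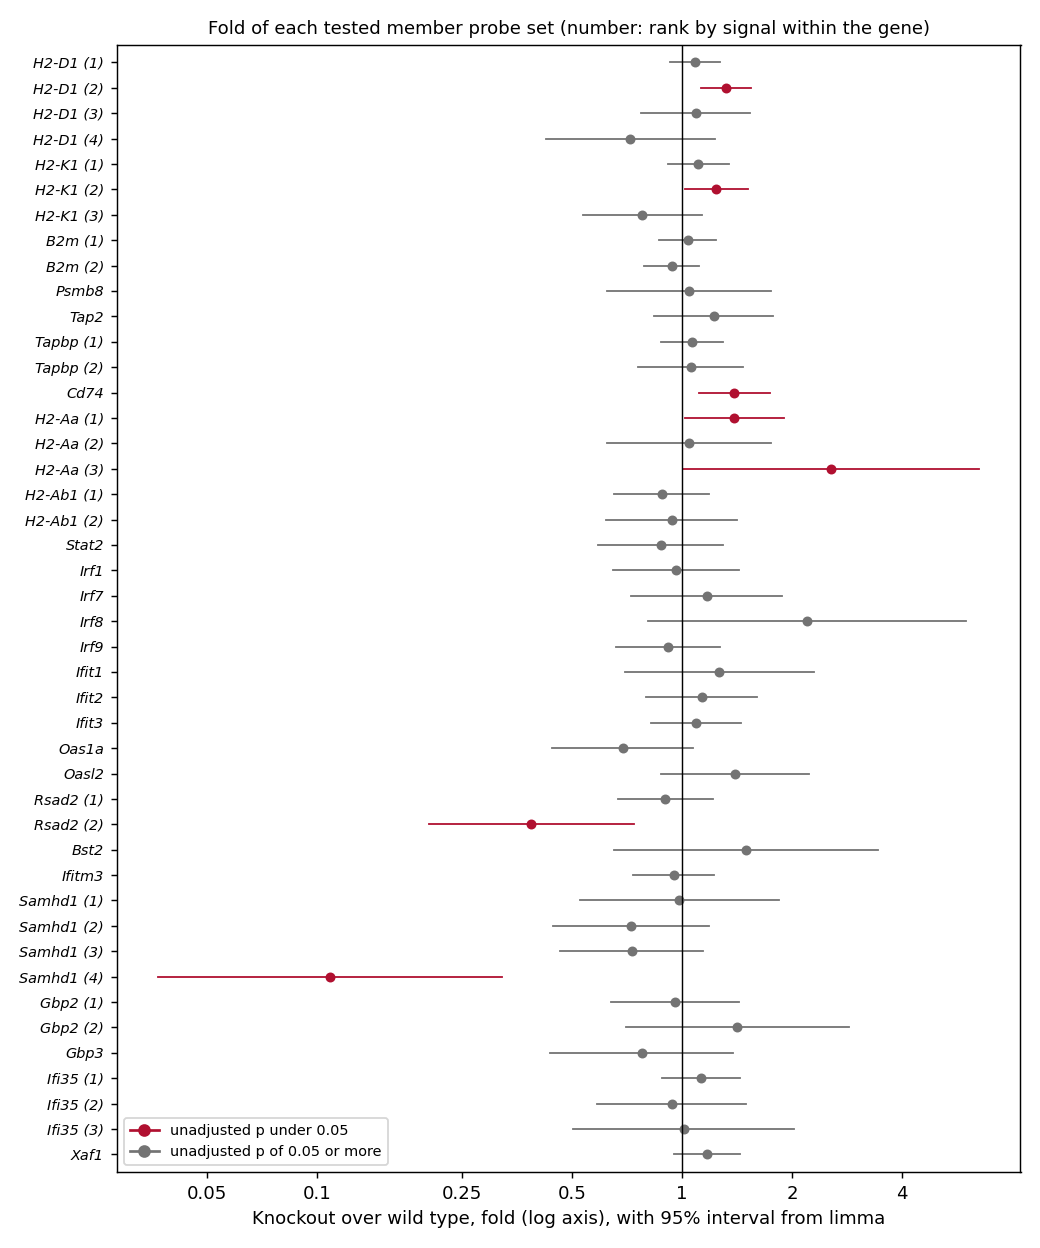
Fold of knockout over wild type (log axis) for each of the 44 tested probe sets, ordered by role and, in brackets, by brightness within the gene, with the 95% confidence interval from limma. Red marks an unadjusted p under 0.05: 5 intervals, of H2-D1, H2-K1, Cd74 and H2-Aa, lie wholly above 1, and 2, of Rsad2 and Samhd1, wholly below.

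MHC class I molecules display peptides made inside the cell, and each is a heavy chain, here H2-D1 or H2-K1, bound to the light chain B2m. B2m read 5459, 6309 and 5778 in wild type and 5971, 7133 and 5219 in knockout, a fold of 1.04 (0.866 to 1.24). Its groups overlapped widely, and its second probe set, at a fold of 0.938, lay on the other side of 1. Under quantile normalization the direction of the first B2m probe set flipped too.

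H2-D1 had 4 tested probe sets. The brightest read 2593, 2634 and 3103 in wild type and 3028, 2997 and 2981 in knockout, a fold of 1.08 (0.929 to 1.27) with overlapping groups. The second read 2227, 2394 and 2199 in wild type and 3199.6, 2717 and 3087 in knockout, so all 3 knockout animals lay above all 3 wild types. Its means were 2273 ± 105 and 3001 ± 252 (SD, n = 3). The fold was 1.32 (1.13 to 1.54), with an unadjusted limma p of 0.00248 and an adjusted p of 0.591. The unadjusted p stayed under 0.05 with any single array left out. The third and the fourth probe set had folds of 1.09 (0.772 to 1.54) and 0.722 (0.424 to 1.23), so the 4 did not share a direction.

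H2-K1 gave a like picture with 3 tested probe sets. The brightest read 1451, 1839 and 1974 in wild type and 1905, 1889 and 1989 in knockout, a fold of 1.11 (0.914 to 1.34), and the groups overlapped. The second read 1023, 1204 and 1288 in wild type and 1588, 1309 and 1461 in knockout, with no overlap, a fold of 1.24 (1.02 to 1.51), an unadjusted limma p of 0.0336 and an adjusted p of 0.595. Without wild type replicate 1 that unadjusted p was 0.123, and under quantile normalization 0.0575. The third had a fold of 0.777 (0.534 to 1.13). Class I heavy chain genes are near copies of each other, and most of these probe sets are of the type that the manufacturer marks as able to bind several transcripts, so their signals are uncertain as to gene. A probe set annotated to both H2-K1 and H2-D1 read 148, 276 and 343 in wild type and 327, 308 and 260.3 in knockout, a fold of 1.23 (0.781 to 1.95).

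**Figure D2:**
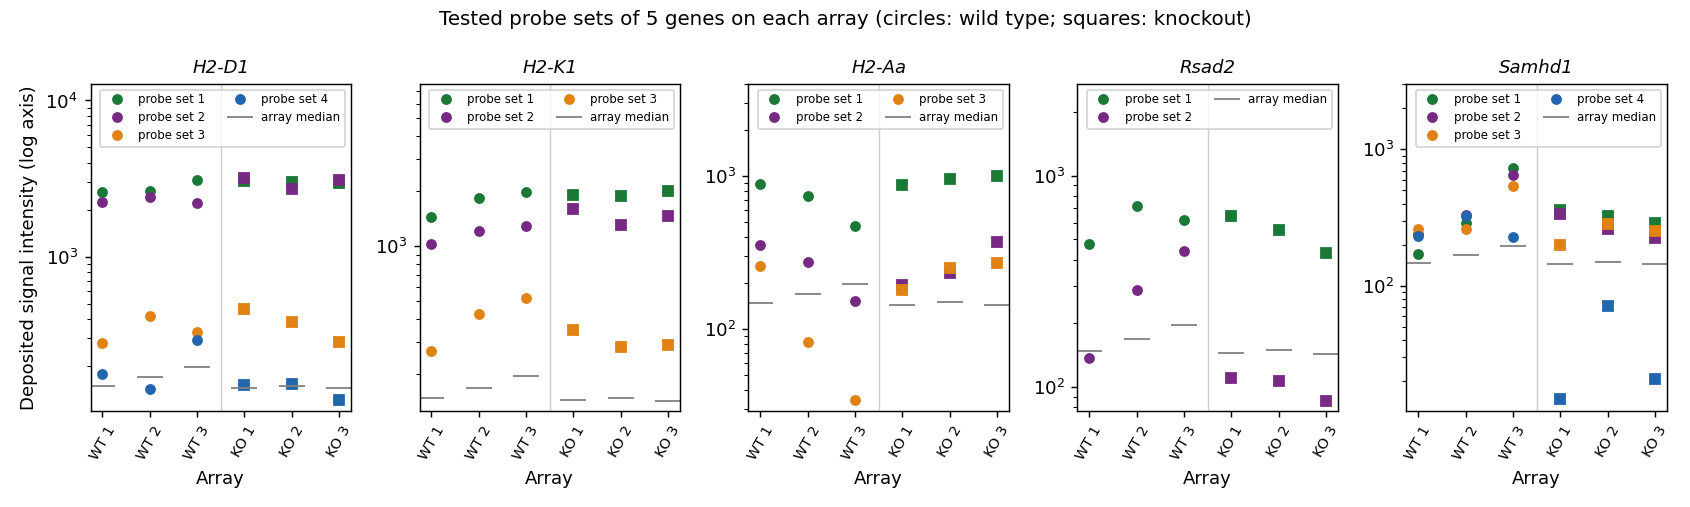
Deposited signal (log axis) on each of the 6 arrays for the tested probe sets of H2-D1, H2-K1, H2-Aa, Rsad2 and Samhd1, with wild type as circles, knockout as squares, a colour per probe set (numbered by brightness) and a dash at each array's median. The second probe sets of H2-D1 and H2-K1 lie wholly higher in knockout and the dimmest tested ones of Rsad2 and Samhd1 wholly lower, while other probe sets of these genes overlap.

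Peptides reach class I molecules through the immunoproteasome subunits Psmb8 and Psmb9, the transporter made of Tap1 and Tap2, and tapasin (Tapbp), which holds the transporter to the empty molecule. Psmb8 read 159, 161 and 333 in wild type and 247, 243 and 161 in knockout, a fold of 1.04 (0.622 to 1.75). The wild type value of 333 came from replicate 3, and the direction flipped without any of 4 arrays in turn. Tap2 read 201, 273 and 202 in wild type and 326, 220.2 and 282 in knockout, a fold of 1.22 (0.839 to 1.78). Tapbp read 1024, 984 and 1236 in wild type and 1219.7, 1058 and 1161 in knockout, a fold of 1.06 (0.874 to 1.29), and its second probe set also had 1.06. All 3 genes had overlapping groups. Psmb9, with signals of 89.7 to 165, and Tap1, with at most 166 on any of its 4 probe sets, were too dim to be tested.

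MHC class II molecules show peptides from outside the cell to helper T cells. They are made of the chains H2-Aa and H2-Ab1, and the invariant chain Cd74 guides them through the cell. Cd74 read 474, 409 and 407 in wild type and 637, 584 and 571 in knockout, so every knockout animal lay above every wild type. The means were 430.0 ± 38.1 and 597 ± 35.3 (SD, n = 3). The fold was 1.39 (1.11 to 1.74), with an unadjusted limma p of 0.00796 and an adjusted p of 0.591. With single arrays left out in turn the unadjusted p lay between 0.00644 and 0.0407, and without wild type replicate 3 the fold was 1.36.

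H2-Aa read 890.1, 741 and 473 in wild type and 879, 958 and 998 in knockout. The wild type spread was wide and wild type replicate 1 lay above a knockout animal. The fold was 1.39 (1.02 to 1.90), with an unadjusted limma p of 0.0388 and an adjusted p of 0.598. Without wild type replicate 3, the lowest, it was 1.16 with an unadjusted p of 0.135. The third probe set of H2-Aa read 258, 81.9 and 34.4 in wild type and 179, 251 and 271 in knockout, a fitted fold of 2.56 (1.01 to 6.52) at an unadjusted limma p of 0.0489. It reached the filter through the knockout arrays alone, and without wild type replicate 3 the fold was 1.58. The second probe set had a fold of 1.04 (0.622 to 1.75), and of 0.824 without that array.

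H2-Ab1, the partner chain of H2-Aa, read 297, 352 and 429 in wild type and 332, 311 and 296 in knockout, a fold of 0.879 (0.653 to 1.18) that passed 1 when arrays were divided by their medians. Its second probe set had 0.937 (0.621 to 1.41). The 2 chains of the same molecule thus lay on opposite sides of 1, with overlapping groups in both.

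Cell type markers were read on the same arrays. Over all tested genes, 55.8% had a log2 difference above 0, 9.06% lay wholly above and 5.37% wholly below wild type. The marker counts also took in probe sets too dim to be tested, which these shares leave out. Of 8 markers of border macrophages and dendritic cells, 1 lay above 0 and 4 lay wholly below wild type. These 4 were Flt3, Zbtb46, Lyve1 and Cd163, of which Lyve1 and Cd163 were too dim to be tested. The summed signal of the 8 markers was 1147 to 1815 in wild type and 1056 to 1129 in knockout. Lyve1, Ccr2 and Itgax were under the median of every array. Of 11 microglial markers 4 lay above 0, and their sum was 11802 to 16905 in wild type and 12090 to 13590 in knockout. Of 6 T cell markers, 5 were under the array median on all 6 arrays, among them Cd3d, Cd3e and Cd3g, and their groups overlapped. The 3 B cell markers, Ms4a1, Cd79a and Cd79b, were also under the median of every array. Of these, 2 lay above 0, and Cd79b had no overlap, at 47.8, 44.6 and 15.8 in wild type and 108, 64.8 and 77.4 in knockout. Of 4 markers of meningeal fibroblasts, Col1a1, Col1a2 and Dcn were wholly higher in knockout and Lum was wholly lower, and their sum was 5463 to 7138 in wild type and 7802 to 9219 in knockout. Of 3 oligodendrocyte markers 2 lay above 0 and only Mbp was wholly higher. Their sum, mostly Mbp, was 47192 to 49422 in wild type and 55529 to 63555 in knockout. Of 5 neuronal markers 3 lay above 0 and only Nefl was wholly higher. Of 7 endothelial markers 2 lay above 0, and Pecam1 was wholly lower. Of 4 astrocyte markers 3 lay above 0, and the groups overlapped in all. All 5 neutrophil markers, all 4 skeletal muscle markers and 1 of 3 red blood cell markers lay above 0, with overlapping groups in each list. The part of these cell types in the values of Cd74 and H2-Aa was not tested.

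**Figure D3:**
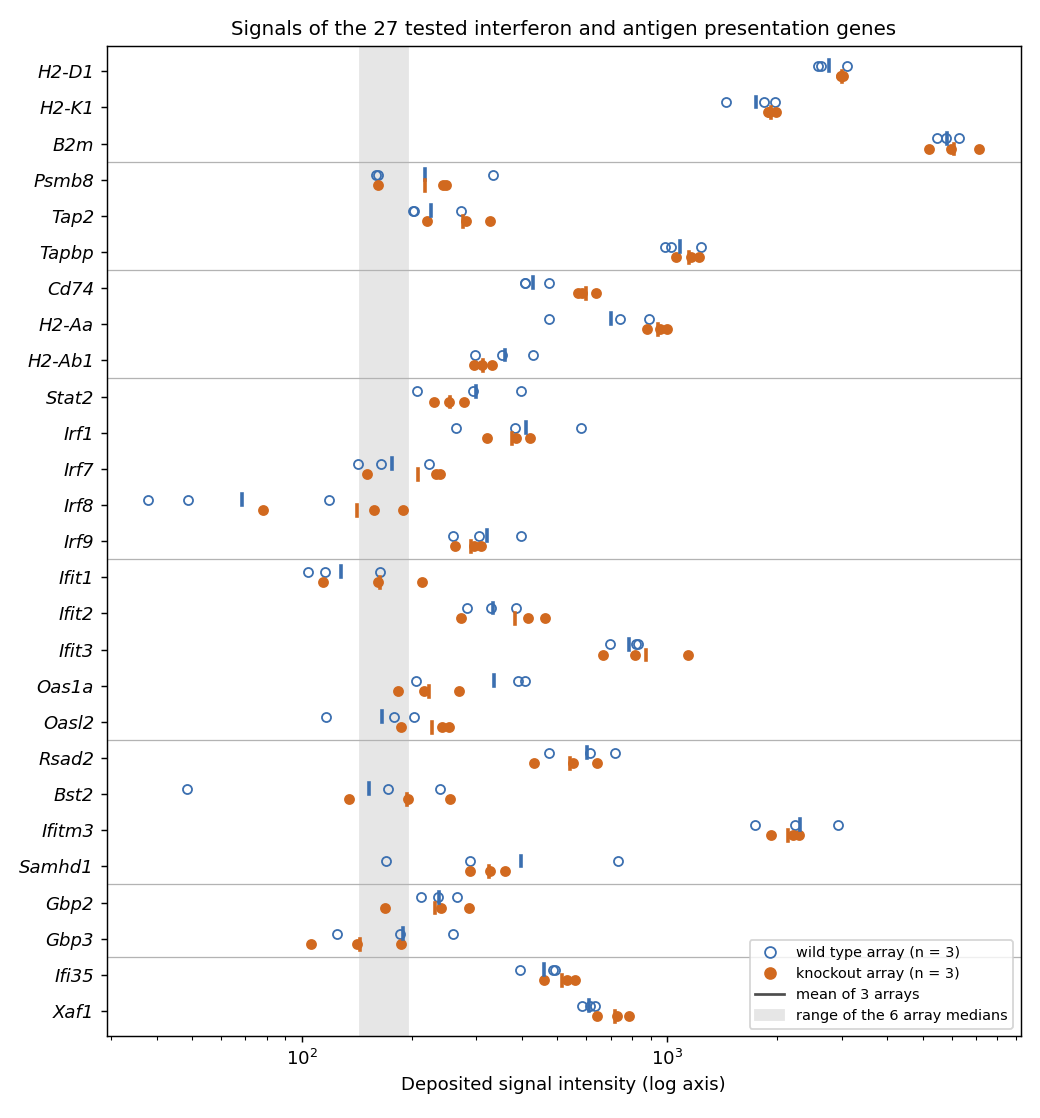
Deposited signal (log axis) of the brightest tested probe set of each of the 27 genes on the 6 arrays, wild type and knockout in separate colours, 1 point per array. Short lines are means of 3 arrays and the grey band is the range of the array medians. Cd74 and Xaf1 are the 2 genes whose groups do not overlap, and the wild type points spread more than the knockout points in 19 of 27.

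The sequences that interferon signals act on are short, and they are shown here for the genes whose start sites hold them. Interferon regulatory factors bind paired GAAA repeats and STAT dimers bind a palindrome. In RefSeq's promoter windows of assembly GRCm38.p6, 250 bases before to 50 after each start, 27 of the 32 genes had a window. The IRF pair, searched as GAAANNGAAA on both strands, lay in windows of 11 genes. That was 33.3% of their 33 windows, against 3.44% of all 32851 windows. The following stretches lie upstream of the start, are written along the gene 5′ to 3′ with the matched letters in capitals, and cover well known antiviral genes as well as the class I light chain B2m and the factor Stat2.
Isg15, chr4:156200860-156200911, minus strand: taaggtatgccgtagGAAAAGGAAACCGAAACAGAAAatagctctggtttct
Ifit1, chr19:34640770-34640828, plus strand: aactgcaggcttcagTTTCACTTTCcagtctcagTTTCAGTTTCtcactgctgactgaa
Ifit3, chr19:34583358-34583431, plus strand: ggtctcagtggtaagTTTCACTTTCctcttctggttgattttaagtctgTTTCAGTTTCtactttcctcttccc
Rsad2, chr12:26456548-26456587, minus strand: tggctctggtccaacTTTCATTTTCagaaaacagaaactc
Bst2, chr8:71537572-71537617, minus strand: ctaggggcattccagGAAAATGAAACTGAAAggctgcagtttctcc
Gbp2, chr3:142620589-142620628, plus strand: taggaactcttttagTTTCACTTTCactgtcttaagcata
B2m, chr2:122147533-122147572, plus strand: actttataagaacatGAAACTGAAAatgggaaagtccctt
Stat2, chr10:128270261-128270300, plus strand: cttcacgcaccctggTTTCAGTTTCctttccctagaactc
In Ifit1, Ifit3, Rsad2, Gbp2 and Stat2 the capitals hold the pair as it reads from the opposite strand, and the runs in Isg15 and Bst2 are overlapping matches. Gbp3, Oas1a and Ifitm3 also held the pair.

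The STAT site, searched as TTCNNNGAA on both strands, lay in windows of 9 genes, 27.3% of windows against 8.3% of all. They were Psmb8, Irf1, Irf8, Ifit2, Oas1a, Bst2, Ifitm3, Samhd1 and Ifi35. In Bst2 and Ifitm3 it overlaps the IRF pair. The stretches of 2 transcription factors and of an immunoproteasome subunit are given in the same way.
Irf1, chr11:53769909-53769947, plus strand: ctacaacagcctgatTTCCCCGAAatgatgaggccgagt
Irf8, chr8:120736172-120736228, plus strand: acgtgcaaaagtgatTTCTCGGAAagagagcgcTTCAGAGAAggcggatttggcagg
Psmb8, chr17:34198083-34198121, plus strand: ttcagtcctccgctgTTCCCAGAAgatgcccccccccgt
Among tested genes with a window, the 10 that held the IRF pair had log2 differences of -0.54 to 0.58 with a median of -0.07, and 4 lay above 0. The 14 without it had a median of 0.16, and 11 lay above 0. Of all tested genes, 55.8% lay above 0. A match describes letters, not a bound site.

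The transcription factors that carry the signal had overlapping groups throughout. Stat2 and Irf9 join into the complex that acts on type I interferon genes. Stat2 read 207, 294 and 398 in wild type and 253, 229.8 and 278 in knockout, a fold of 0.874 (0.590 to 1.3). Irf9 read 259.9, 305 and 397 in wild type and 263, 296 and 310.0 in knockout, a fold of 0.915 (0.660 to 1.27). In both genes wild type replicate 3 was highest. Without it the folds were 1.02 for Stat2 and 1.03 for Irf9, and both directions also flipped under division by array medians.

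Irf1, which acts in responses to interferon gamma, read 382, 265 and 581 in wild type and 386, 420.1 and 322 in knockout, a fold of 0.961 (0.646 to 1.43). Its direction flipped under either other scaling, and the fold was 1.18 without wild type replicate 3, which held the value of 581. Irf7, which amplifies type I interferon production, read 143, 223 and 165 in wild type and 151, 233 and 239 in knockout, a fold of 1.17 (0.727 to 1.88). Neither gene separated the genotypes.

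Irf8 is a factor of microglia and other myeloid cells. Its tested probe set read 48.7, 38.0 and 119 in wild type and 78.5, 157 and 189 in knockout, a fitted fold of 2.20 (0.806 to 6.00) at an adjusted limma p of 0.665. All 3 wild type signals lay under their array medians, so the probe set reached the filter through the knockout arrays alone, and set against those medians no fold above 1 remained. The fitted fold was 3.09 without wild type replicate 3 and 1.75 without wild type replicate 2. A second probe set, brighter on average but not tested, read 97.5, 136 and 210.1 in wild type and 104, 141 and 97.2 in knockout, with the means in the opposite order.

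Isg15 is a ubiquitin-like protein that is attached to other proteins during the response, and Usp18 removes it and dampens the receptor. The probe set annotated to Isg15 and Gm9706 read 156, 134 and 281 in wild type and 197, 226 and 194 in knockout, a fold of 1.14 (0.695 to 1.86) at an adjusted limma p of 0.896. The wild type values enclosed the knockout values, and the signal cannot be assigned to 1 gene. Usp18 read 116, 156 and 205 in wild type and 226, 132 and 142 in knockout and was not tested.

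Ifit1, Ifit2 and Ifit3 bind viral RNA and block its translation, and the Oas proteins sense double-stranded RNA. Ifit1 read 104, 116 and 164 in wild type and 213, 162 and 114 in knockout, a fold of 1.26 (0.696 to 2.29). Ifit2 read 329, 386 and 284 in wild type and 461, 273 and 416 in knockout, a fold of 1.13 (0.799 to 1.60). Ifit3 read 834, 823 and 698 in wild type and 1141, 819 and 665 in knockout, a fold of 1.09 (0.821 to 1.45). Knockout replicate 1 was the highest array in all 3 genes, and without it the folds were 1.09 for Ifit1, 1.02 for Ifit2 and 0.943 for Ifit3. Ifit1, like Irf7, reached the filter through the knockout arrays alone, and its wild type signals all lay under their array medians.

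The Oas genes lay apart from each other. Oas1a, which makes the second messenger that starts RNA decay, read 205, 391 and 409 in wild type and 184, 269 and 215 in knockout, a fold of 0.688 (0.441 to 1.07) at an adjusted limma p of 0.642. Without wild type replicate 1, the low wild type value, it was 0.551 with an unadjusted p of 0.00551. Leaving out that array also took the share of all tested probe sets lower at an unadjusted limma p under 0.05 from 3.98% to 7.36%. Oasl2, an Oas-like protein, read 202, 179 and 116 in wild type and 253, 242 and 187 in knockout, a fold of 1.4 (0.877 to 2.22) at an adjusted limma p of 0.680. Both groups overlapped, and the difference between the 2 genes was not tested.

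Rsad2, or viperin, makes a chain-terminating nucleotide. Its brightest probe set read 475, 721 and 616 in wild type and 641, 553 and 432 in knockout, a fold of 0.899 (0.666 to 1.21) with overlapping groups, and this flipped under division by array medians. A dimmer probe set read 137, 288 and 441 in wild type and 110.0, 107 and 85.5 in knockout. There all 3 knockout signals lay below the wild types and under their array medians, so the probe set reached the filter through the wild type arrays alone. The fitted fold was 0.387 (0.202 to 0.740), with an unadjusted limma p of 0.00803 and an adjusted p of 0.591. Set against the array medians of the knockouts, the wild type mean was 1.78-fold higher, a value without an interval. Wild type replicate 1 also lay under its own array median. Without wild type replicate 3 the fold was 0.505.

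Samhd1 depletes the nucleotides that viruses need for DNA synthesis, and it had 4 tested probe sets. The brightest read 170.2, 288 and 734 in wild type and 359, 328 and 289 in knockout, a fold of 0.982 (0.525 to 1.84). It was 1.46 without wild type replicate 3, which held the value of 734, and its direction flipped under either other scaling. The second and the third probe set had folds of 0.725 (0.443 to 1.19) and 0.728 (0.464 to 1.14), also with wild type replicate 3 as the highest array, and without it they were 0.957 and 0.926.

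The fourth probe set of Samhd1 differed from these. It read 232, 323 and 227 in wild type and 14.7, 71.1 and 20.8 in knockout, with no overlap. The means were 260.4 ± 54.1 and 35.6 ± 31.0 (SD, n = 3), and all 3 knockout signals lay under their array medians. The probe set thus reached the filter through the wild type arrays alone. The fitted fold was 0.109 (0.0368 to 0.322), with an unadjusted limma p of 0.000891, the smallest of the 44 probe sets, and an adjusted p of 0.591. Set against the array medians of the knockouts, the wild type mean was 1.76-fold higher, a value without an interval. With an offset of 50 the fold was 0.267. With single arrays left out in turn the fold lay between 0.0682 and 0.150. The other 3 probe sets of the gene had overlapping groups.

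Other antiviral effectors overlapped between genotypes. Bst2, or tetherin, ties budding virus to the cell surface. It read 238, 172 and 48.4 in wild type and 135, 195 and 254 in knockout, a fold of 1.5 (0.651 to 3.44) that turned to 0.929 without wild type replicate 3. Ifitm3, which blocks the fusion of viruses in endosomes and is also made by endothelial cells, read 1744, 2242 and 2929 in wild type and 2207, 1924 and 2297 in knockout, a fold of 0.948 (0.736 to 1.22). Its direction flipped under division by array medians, and without wild type replicate 3, which held the value of 2929, the fold was 1.08. Mx1, a dynamin-like GTPase, had signals of 35.3 to 103 and was not tested.

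Guanylate binding proteins attack the vacuoles in which microbes live. Gbp2 read 235, 212 and 266 in wild type and 287, 240.0 and 168 in knockout, a fold of 0.956 (0.640 to 1.43). It flipped under either other scaling and was 1.01 without wild type replicate 3. Its second probe set had a fold of 1.42 (0.701 to 2.87), and of 1.04 without that array. Gbp3 read 185, 259 and 125 in wild type and 106, 141 and 186 in knockout, a fold of 0.775 (0.435 to 1.38). The groups overlapped in both genes. Gbp3 reached the filter through the wild type arrays alone, and the second probe set of Gbp2 through the knockout arrays alone.

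Ifi35 and Xaf1 are also induced by interferon, and Xaf1 opposes an inhibitor of apoptosis. Xaf1 read 613, 585 and 636 in wild type and 729, 641 and 785 in knockout, so its groups did not overlap, though the closest pair differed by little. The fold was 1.17 (0.951 to 1.44) at an adjusted limma p of 0.671. Ifi35 read 494, 487 and 397 in wild type and 559, 532 and 459 in knockout, a fold of 1.13 (0.88 to 1.44). Its other tested probe sets had folds of 0.936 and 1.01, with wild type replicate 3 highest in both, and without it 1.14 and 1.35.

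Probe sets of the same gene often disagreed. Of 10 genes with more than 1 tested probe set, all pointed 1 way in 5, and both directions occurred in the other 5, which were H2-D1, H2-K1, B2m, Gbp2 and Ifi35. H2-D1, H2-K1, Rsad2 and Samhd1 each had 1 probe set without overlap between genotypes and a brighter one with overlap. Which transcript each probe set reads was not analysed here.

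The signals of these genes varied more between animals of a genotype than those of the typical tested gene. The comparison was not matched for signal, and 16 of the 27 had a median percentile of 50 to 75 on the arrays. The median SD within wild type was 0.31 on the log2 scale, against 0.20 for all tested genes, and within knockout it was 0.23, against 0.14. Wild type was the more variable genotype in 19 of the 27 genes (70.4%), close to the share of all tested genes (68.1%). Wild type replicate 3 was the highest array in 10 of the 27 (37.0%, against 26.7% of all tested genes). Wild type replicate 1 was the lowest in 10 (37.0%, against 16.1%) and the highest in none. The median deviation from the gene's mean was -0.15 for wild type replicate 1, 0.0063 for wild type replicate 2 and 0.11 for wild type replicate 3. It was 0.14, 0.045 and 0.041 for the knockout arrays. The summed signal of 5 neutrophil markers was also lowest on wild type replicate 1, at 2261 against 8435 to 12990 on the other arrays. That of microglial markers was lowest there too, at 11802 against 12090 or more. So were the sums of T cell, B cell, red blood cell, endothelial and skeletal muscle markers, but not those of the other lists. Their part in the spread of the interferon genes was not tested.

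**Figure D4:**
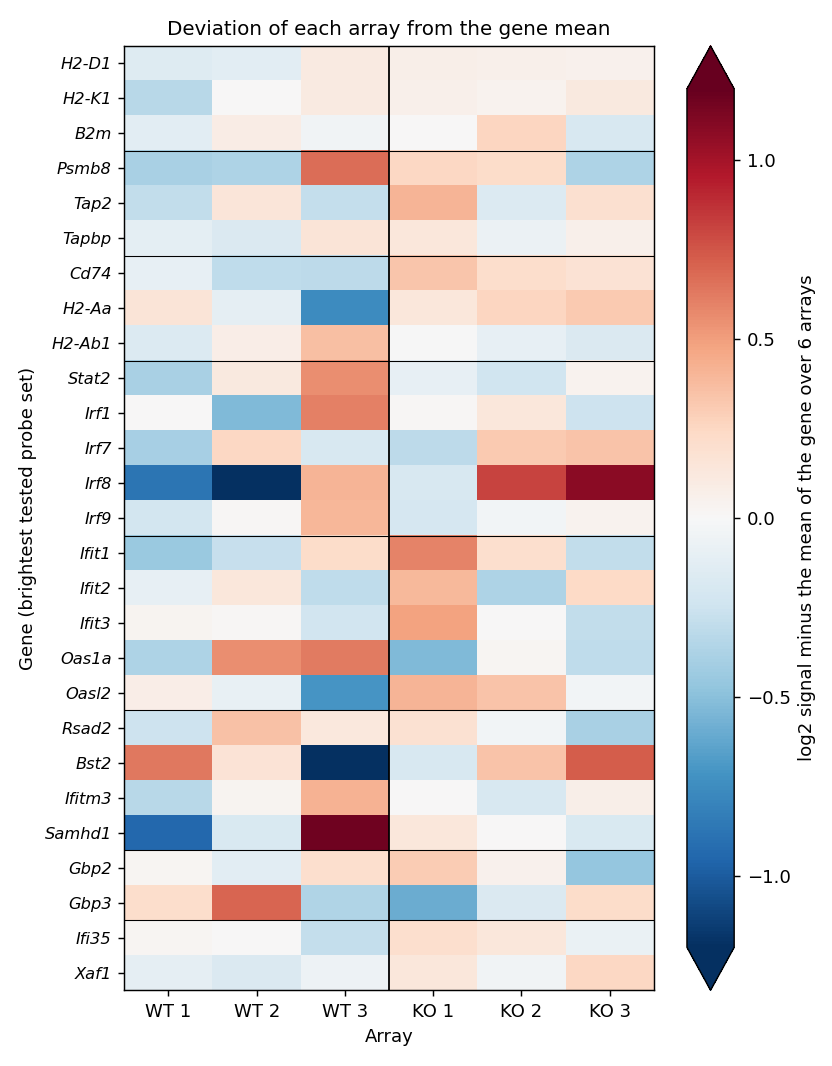
Colour map of the log2 signal of each of the 27 genes (rows, grouped by role) on each array (columns, wild type left of the line) minus the mean of that gene over the 6 arrays, red above and blue below, with colours saturated at the ends of the scale. Wild type replicate 1 is the lowest array in 10 rows and wild type replicate 3 the highest in 10, and Irf8, Bst2 and Samhd1 have the strongest colours.

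Other genes of the same pathways were read from a list of 117, of which 98 had a probe set of their own and 63 were tested. Of these 27 lay above 0 (42.9%, against 55.8% of all tested genes) and 36 below, with a median log2 difference of -0.04. No gene was called by limma, at a smallest adjusted p of 0.591. At an unadjusted p under 0.05, 2 genes were higher (3.17%) and 4 lower (6.35%), beside 4.94% and 3.25% of all tested genes. The 5 sublists, of 9 class I genes, 6 class II genes, 10 interferons, receptors and kinases, 8 nucleic acid sensors and 30 further effectors, had medians between -0.15 and -0.04.

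Ifngr1, the ligand-binding chain of the interferon gamma receptor, had the smallest p of the list. It read 527, 656 and 713 in wild type and 384, 440.3 and 461 in knockout, with no overlap, a fold of 0.681 (0.530 to 0.875), an unadjusted limma p of 0.00620 and an adjusted p of 0.591. The others with lower values were Ifi27l2a, at 0.593 (0.377 to 0.933), Ifitm1, at 0.707 (0.502 to 0.998), and Irgm1, a GTPase that guards against intracellular microbes. Without wild type replicate 3 the folds of Ifi27l2a and Ifitm1 were 0.711 and 0.834, at unadjusted p-values of 0.106 and 0.195. Irgm1 read 483, 481 and 452 in wild type and 370.2, 319 and 414 in knockout, without overlap, a fold of 0.776 (0.603 to 0.999). Sting1, the adaptor of cytosolic DNA sensing, followed with a fold of 0.5 (0.244 to 1.02), and of 0.609 without wild type replicate 3.

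Calr, the chaperone that loads class I molecules and folds many other glycoproteins, was the higher gene with the smallest p. It read 5539, 5164 and 5849.7 in wild type and 7186, 6142 and 6431 in knockout, with no overlap, a fold of 1.19 (1.03 to 1.38), an unadjusted limma p of 0.0220 and an adjusted p of 0.595. Ifi47, a GTPase of the Irgm1 family, read 63.2, 215 and 47.2 in wild type and 254, 171 and 197 in knockout, a fold of 2.37 (1.03 to 5.45), and of 1.75 at an unadjusted p of 0.104 without wild type replicate 3. Gbp7 and Trim25 followed, with folds of 1.21 (0.948 to 1.55) and 1.22 (0.939 to 1.58) and no overlap, and then Uba7, the enzyme that activates Isg15, at 1.35 (0.838 to 2.17).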

How the data were processed

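Biotin-labelled RNA of 6 spinal cords was hybridised to Affymetrix Mouse 430 2.0 arrays, and all RNA was extracted on a single day, per the labels. The deposited values are linear signal intensities that the authors made with MAS 5.0 in GCOS 1.4, per the series' design text and the submitters' processing notes. Every array had the same trimmed mean of 500.00, so each had been scaled by the authors. The design text also names division by chip medians and a present call filter in GeneSpring 7.2. Array medians here follow the dim signals, which differ between the wild type arrays, so the deposited scaling was kept and division by medians was an alternative. Present calls were not used here, and a filter at the 50th percentile stood in for them.

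Log2 intensities were compared with limma 3.58.1 in R 4.3.3 (lmFit, then eBayes with a trend on intensity), with Benjamini-Hochberg adjustment over all 23546 tested probe sets and a threshold of 0.05. Controls (64 probe sets) were left out. The code was tested on simulated data. Symbols came from the platform annotation, in which 34958 probe sets had 1 symbol and 932 had several. Of those with 1 symbol, 34754 were found in RefSeq's gene table of GRCm38.p6. Promoter windows came from RefSeq, and a RefSeq protein table was not used here. A fold set against the array medians divides the geometric mean of the brighter group by that of the dimmer group's array medians. It does not cover the spread between animals. The lists of pathway genes and of cell type markers, the members and the settings were chosen with earlier results of these data known. All members were named, with values on every array for each gene's brightest tested probe set and every probe set at an unadjusted p under 0.05. For genes with no tested probe set the rule gives only the range, and the values on every array of Usp18, of the Irf8 probe set that was not tested and of probe sets shared by several genes were added after they were seen. Of the pathway list, the 5 genes with the smallest p in each direction were named. The number of arrays, 3 a genotype, limits the precision, and p-values cover only the spread between these animals. Alternatives were 2 other scalings, 3 other filters, an offset of 50, no trend, the methods' t-test and a replicate block. Each array was also left out in turn.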

Additional observations from a re-analysis of the deposited data

How the results depend on the processing

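No probe set of the interferon and antigen presentation genes was called under any of the 15 alternatives to the limma fit, at a smallest adjusted p between 0.14 (without wild type replicate 1) and 0.97. Over all tested probe sets 2 were called after division by array medians, 4 with the replicate block, 0 by the methods' t-test (1136 at its own thresholds, smallest adjusted p 0.660) and 0 without the trend. Leaving out single arrays gave 0 to 9, 9 of them without wild type replicate 1, whereas leaving out wild type replicate 3 gave 3, and wild type replicate 2 or knockout replicate 2 gave 0. Probe sets of the genes at an unadjusted p under 0.05, 5 higher and 2 lower in the main analysis, were 2 higher under quantile normalization, without the trend and by the t-test, which had 1 lower. In these settings 3.67%, 2.96% and 3.98% of all tested probe sets were higher, and 2.8%, 4.85% and 3.17% lower, in that order. With a filter at the 75th percentile 4 of 13 were higher and 0 lower, where 6.67% and 2.11% of all were, and 0 lay wholly below wild type. After division by array medians 7 were higher and 2 lower, where 11.9% and 1.12% of all were. Leaving out single arrays gave 2 to 6 higher and 2 to 5 lower, with 2 higher without knockout replicate 1 or knockout replicate 3, 3 higher without knockout replicate 2 and 5 lower without wild type replicate 1. Over all probe sets these shares ranged from 1.66% to 6.65% higher and from 2.35% to 7.36% lower, the latter without wild type replicate 1. Probe sets without overlap were 8 higher after division by array medians, where 19.9% of all tested probe sets were. Leaving out single arrays gave 5 to 10 higher and 2 to 6 lower: 7 higher without knockout replicate 1 (15.9%, all 11.6%), 7 higher and 6 lower without wild type replicate 1 (15.9% and 13.6%, all 16.4% and 16.1%), and 4 lower once wild type replicate 2 was left out (9.09%, all 10%). With wild type replicate 3 left out the counts were 10 higher (22.7%, all 14.9%) and 2 lower (4.55%, all 14.7%). The median log2 difference was 0.34 after division by array medians, and 0.042 to 0.19 with single arrays left out. Pathway genes at an unadjusted p under 0.05 were 9 lower with a filter at the 25th percentile and 10 lower with no filter, 1 higher and 1 lower at the 75th percentile, and 4 higher and 0 lower after division by array medians. Of all tested probe sets, 5.0% were lower with the 25th percentile filter and 5.52% with no filter. At the 75th percentile 6.67% were higher and 2.11% lower, and after division by array medians 11.9% and 1.12%. These shares are of probe sets, not of genes. How many pathway genes were tested under the other filters is not given here, so those counts have no share of their own. Pathway genes were 1 higher and 2 lower under quantile normalization and by the t-test, and 0 higher without the trend. Single arrays left out gave 0 to 2 higher and 1 to 8 lower of the 63 genes of the main filter. The 0 higher came without knockout replicate 1 (2.12% of all tested probe sets). The 8 lower came without wild type replicate 1 (7.36%) and the 1 lower without wild type replicate 2 (2.45%). Without knockout replicate 2 or 3 or wild type replicate 1 or 2, 1 was higher, and without replicate 3 of either genotype 2 were lower. Filters change how many genes were tested, and the cause of the other moves was not tested. Of the 27 genes, 15 kept their direction throughout, and 9 differed in direction under at least 1 other scaling. The replicate numbers do not pair the samples: deviations of same-numbered arrays correlated at -0.034, 0.074 and 0.11. The replicate block left 5 probe sets of the genes higher and 3 lower at an unadjusted p under 0.05, where 5.29% and 4.6% of all tested probe sets were.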
